A study of Mus musculus with 2 samples.

Results

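The genes of the mitochondrial respiratory chain and ATP synthase were followed through the stromal cell types of mouse pancreatic tumours. They were chosen by symbol alone: every feature whose symbol starts with Nduf, Sdh, Uqcr, Cox4, Cox5, Cox6, Cox7, Cox8 or Atp5, without pseudogene names and without the genes of mitochondrial DNA. This gave 97 of 31054 features under 96 distinct symbols, since Atp5o names more than 1 feature. By role they were 36 subunits of complex I with 8 of its assembly factors, 4 subunits of complex II with 4 assembly factors, 8 of complex III, 20 of complex IV (Ndufa4 and Ndufa4l2 counted here), 16 of ATP synthase and the ATP synthase factor Atp5s. Over all cells, 85 features reached 10 CPM in a library (CPM is the count of unique molecular identifiers, UMIs, of a gene scaled to a library or population total of 1000000). The 12 that did not were Atp5s, the second Atp5o feature, the assembly factors Ndufaf1, Ndufaf5, Ndufaf6 and Sdhaf3, and Cox6a2, Cox6b2, Cox7a1, Cox7b2, Cox8b and Cox8c.

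The study asked what p16-high stromal cells do in the tumour. Cells came from allografts of pancreatic ductal adenocarcinoma, that is carcinoma cells grafted into host mice, and both groups carried the host genotype p16-CreERT2/R26-LSL-tdTomato, in which CreERT2 is expressed under the p16 locus and, once induced, turns tdTomato on for good. The Tom positive group held stromal cells sorted as tdTomato positive and the Tom negative group those sorted as negative, with 1 library each. Reporter colour marks cells in which the p16 locus was active while Cre was induced, in whatever cell type, and the induction schedule, the age of the mice and the number of animals behind each library were not given in the sources used here.

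Each respiratory complex is an assembly of many proteins. Complex I takes electrons from NADH and complex II from succinate, complex III passes them to cytochrome c, complex IV hands them to oxygen, and ATP synthase uses the proton gradient built by complexes I, III and IV. Most subunits come from the nuclear genes counted here and a few from mitochondrial DNA. Some subunits of complex IV exist in forms encoded by paralogous genes that are used in muscle, testis or low oxygen.

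Kept were 4302 Tom positive and 6580 Tom negative cells, with medians of 24191 and 20610.5 UMIs. The tdTomato transcript stood at 547 CPM in the Tom positive library, against 29.7 CPM in the Tom negative library, and was seen in 78.5% and 35.0% of kept cells. Cdkn2a, the gene of p16, was at 24.2 and 18.99 CPM in the same order. The libraries held 3660 barcodes in common. Such a barcode was doubted if its UMIs in the opposite library exceeded its own by over 5 times, or if neither library reached 5000 UMIs for it. This touched 234 Tom positive and 1233 Tom negative kept cells, of which 167 and 667 were mesothelial-like. Cell types were called from marker genes after a clustering that used neither the genes followed here nor the mitochondrial genes, and clusters without a type are called by number and leading genes. There was 1 library per group, so no test between groups was possible. The 95% intervals below hold counting error only, and cells of a library are not replicates. Levels are CPM of UMIs from transcript 3′ ends, which are not counted per length, so levels of different genes are set side by side without ranking them. A gene was called higher or lower at a ratio of at least 1.5 either way, if it reached 10 CPM in a compared population. Log2 values of single genes and medians of log2 values are of CPM + 1.

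Together the 97 features took 1.38% of all UMIs in the Tom positive library and 1.42% in the Tom negative library. Among cell types the sum was highest in pericyte or smooth muscle-like cells, which wrap small vessels, at 16099 CPM in 49 Tom positive cells and 18856 CPM in 161 Tom negative cells. Macrophage-like cells, which are clusters 8, 15 and 19, followed at 16055 and 16708 CPM, and lymphatic endothelial-like cells at 15267 and 14811 CPM. Intervals of pericyte and macrophage-like cells overlapped in the Tom positive library (15875 to 16325 and 15975 to 16136 CPM), so that order was set by the Tom negative library alone. Endothelial-like cells had 12738 and 14672 CPM. Fibroblast-like cells had 13029 and 13230 CPM, an order that turned round between the libraries. Neutrophil-like cells were lowest in both, at 10589 and 6973 CPM. In the Tom negative library, doubted barcodes made up 117 of 236 endothelial-like and 22 of 34 lymphatic endothelial-like cells, and median depth there was 2258.5 and 1601.5 UMIs, against 30849 UMIs for Tom positive endothelial-like cells.

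**Figure D1:**
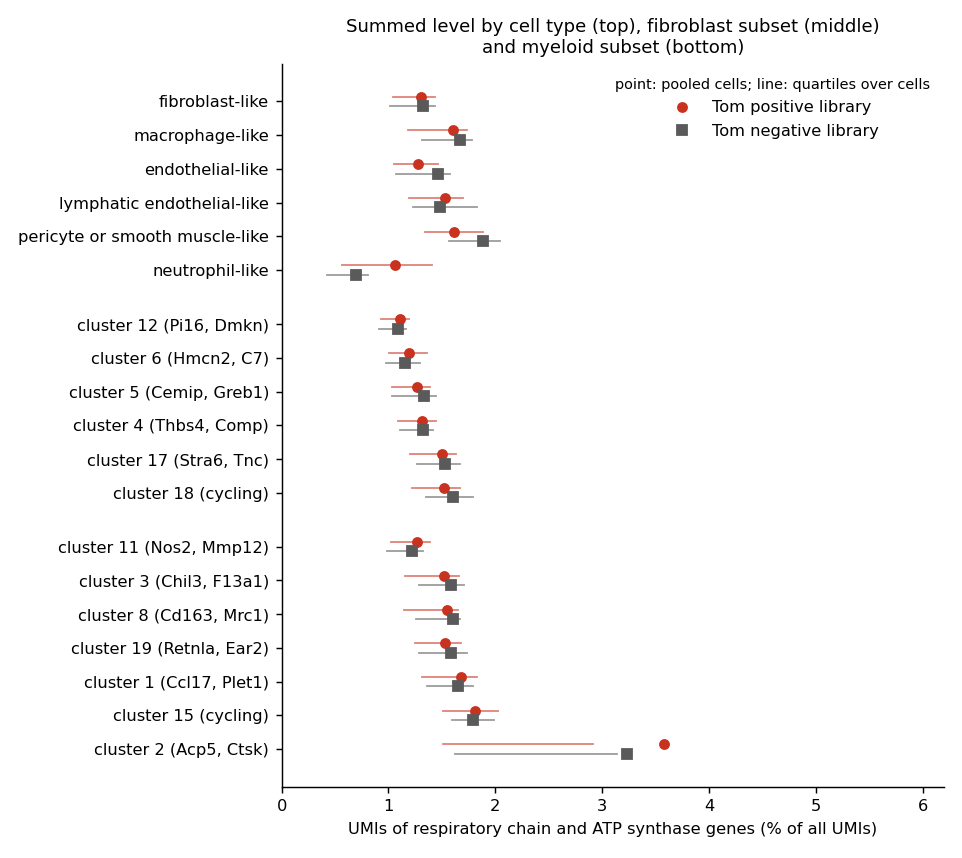
Share of UMIs taken by respiratory chain and ATP synthase genes (percent of all UMIs, x axis) in each cell type, fibroblast subset and myeloid subset (y axis). Points are pooled cells of a library, red circles Tom positive and grey squares Tom negative, and lines run between the quartiles over cells. Cluster 2 stands apart on the right at 3.57% and 3.23%, and neutrophil-like cells on the left at 1.06% and 0.697%.

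Core subunits of ATP synthase and complex II were lowest in neutrophil-like cells, with exceptions among those of complexes I and IV. Atp5b, the catalytic beta subunit of ATP synthase, had 428 and 514 CPM in Tom positive and Tom negative pericyte or smooth muscle-like cells, 322 and 356 CPM in macrophage-like cells, 264 and 295.3 CPM in fibroblast-like cells and 138 and 107 CPM in neutrophil-like cells. Its partner alpha subunit Atp5a1 had 294 and 352 CPM, 353 and 365 CPM, 243 and 263 CPM, and 118 and 82.7 CPM in the same populations. Sdhb, the iron-sulphur subunit of succinate dehydrogenase (complex II), had 89.8 and 122 CPM, 95.4 and 104 CPM, 62.6 and 70.9 CPM, and 41.8 and 26.7 CPM. For all 3 genes, both neutrophil-like values lay below every value of the other types named. Ndufs1, a core iron-sulphur subunit of complex I, departed from this: it had 39.8 CPM in Tom positive neutrophil-like cells, above the 24.96 CPM of Tom positive fibroblast-like cells, while the Tom negative values were 24.1 and 25.5 CPM. Ndufv1, the subunit that binds NADH, was at 26.2 and 16.3 CPM in neutrophil-like cells and at 50.6 and 53.3 CPM in fibroblast-like cells. Cox5a of complex IV had 183 CPM in Tom positive neutrophil-like cells, above the 174 CPM of Tom positive fibroblast-like cells. Its Tom negative values were 124 and 193 CPM. Other transcripts were lower in neutrophil-like cells too. Over macrophage-like cells the median log2 ratio was -0.26 and -0.77 for all features and -0.66 and -1.53 for the members. Over fibroblast-like cells it was -0.25 and -0.87 for all features and -0.46 and -1.17 for the members.

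Across clusters of at least 30 cells in a library, the members' sum ranked much like that of other nuclear genes of mitochondrial proteins. Spearman's rho over 21 Tom positive and 23 Tom negative clusters was 0.88 and 0.81 with the mitochondrial ribosome and 0.89 and 0.81 with the citrate cycle enzymes. With the mRNAs of mitochondrial DNA it was 0.62 and 0.78, with glycolysis 0.18 and 0.40, and with the median UMIs of a cluster -0.08 and 0.27. These are descriptions, since clusters of a library share its depth and free RNA.

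Between the reporter fractions the genes hardly moved in the most numerous cell types. In fibroblast-like cells (1545 Tom positive, 2510 Tom negative) the sum ratio was 0.985 (0.982 to 0.988), which turned to 1.01 when libraries were scaled by TMM factors (trimmed means of ratios) in place of totals. None of 84 measured members passed 1.5-fold, where 0.853% of all features were higher and 1.44% lower. Their ratios ran between 0.820 for Uqcrc1, a core protein of complex III, and 1.11 for Atp5e, a small subunit of the ATP synthase stalk. In macrophage-like cells (470 and 544) the ratio was 0.961 (0.954 to 0.967), and none of 83 members passed 1.5-fold, against 2.04% of all features higher and 2.91% lower. There the lowest was Ndufaf7, a complex I assembly factor, at 0.700 and the highest Ndufaf8, another one, at 1.15.

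Both vascular types were lower in the Tom positive library. In endothelial-like cells the sum was 12738 CPM in 509 Tom positive cells, against 14672 CPM in 236 Tom negative cells, a ratio of 0.868 (0.860 to 0.877). Of 87 members 81 were below 1, and none was past 1.5-fold, where 4.97% of all features were higher and 8.34% lower. The lowest, Ndufa3, a small membrane subunit of complex I, had 134 CPM in Tom positive cells, against 199.6 CPM in Tom negative cells. The 2 clusters of the class differed: without cluster 14, whose Tom negative cells were doubted in 111 of 119 cases, the ratio was 0.864, and in cluster 14 alone it was 1.32. In pericyte or smooth muscle-like cells the ratio was 0.854 (0.841 to 0.867); 4 of 90 members were lower, where 8.64% of all features were, and none was higher, where 10.2% were. Among these were Ndufa10, a complex I subunit, at 66.1 CPM in Tom positive, against 115 CPM in Tom negative cells, and Cox4i2 at 136 and 226 CPM. Markers of dividing cells moved the same way, with a summed level of 166 CPM in Tom positive, against 337 CPM in Tom negative endothelial-like cells and of 388 and 831 CPM in pericyte or smooth muscle-like cells, while the 8 fibroblast markers summed to 1170 CPM in Tom positive, against 3152 CPM in Tom negative endothelial-like cells, and to 16313 and 9390 CPM in pericyte or smooth muscle-like cells. The part of these in the ratios was not tested. In 147 and 34 lymphatic endothelial-like cells the ratio was 1.03, with 5 of 90 members higher and 6 lower, against 15.8% and 16.0% of all features.

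Neutrophil-like cells were higher in the Tom positive library, a contrast with the other types that was not tested. The sum was 10589 CPM in 287 Tom positive cells, against 6973 CPM in 537 Tom negative cells, a ratio of 1.52 (1.48 to 1.56). Of 83 measured members 50 were higher, where 37.4% of all features were, and 1 was lower, where 5.91% were; 82 had a ratio above 1. The median log2 ratio was 0.67 for the members and 0.39 over all features, so other transcripts were shifted the same way, and with TMM factors the ratio of the sums was 1.17. By role, 26 of 36 complex I subunits were higher, 8 of 15 of ATP synthase, 6 of 13 of complex IV, 3 of 8 of complex III and 2 of 4 of complex II.

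Among members at 50 CPM or more, complex I subunits had the highest ratios. Ndufs6, an accessory subunit of the arm that takes up NADH, had 114 UMIs in Tom positive cells, which is 111 CPM, against 61 UMIs or 39.7 CPM in Tom negative cells, a ratio of 2.79 (2.03 to 3.87). Ndufv2, a core subunit of the same arm, had 55.4 CPM in Tom positive, against 20.8 CPM in Tom negative cells (2.66). Ndufb4, of the membrane arm, had 75.8 and 28.6 CPM (2.65). At the other end stood Cox7c, a small complex IV subunit, with 238 and 213 CPM (1.12), and Ndufa7 of complex I with 260.4 and 228 CPM (1.14). The single member called lower was Ndufa4l2, on 6 and 20 UMIs, and its interval of 0.147 to 1.16 includes 1. In the same cells 37 of 63 genes of the mitochondrial ribosome were higher (Mrpl35, log2 1.71) and 6 of 13 of the citrate cycle (Suclg1, log2 1.32), against 13 of 82 of the cytosolic ribosome. Of 14 glycolysis genes none was higher and 1 was lower, Ldha at log2 -0.61. The Tom positive over Tom negative ratio of the glycolysis sum was 0.823, which was not particular to these cells. It was 0.761 in fibroblast-like, 0.819 in macrophage-like and 0.676 in endothelial-like cells. In pericyte or smooth muscle-like cells it was 0.750, and in lymphatic endothelial-like cells 0.973.

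The class was not the same mixture in both libraries. A finer clustering gave neutrophil-like subsets with these among their leading genes: Cxcr2 and Cd177, Prok2 and Asprv1, or Ccl4 and Mreg. These subsets together did not hold exactly the cells of the class used above. Of the cells in them, the Cxcr2 and Cd177 subset made up 45.2% in the Tom positive and 20.7% in the Tom negative library. The Prok2 and Asprv1 subset made up 29.0% and 59.8%. Within subsets the members' sum was 13609 CPM in Tom positive, against 9632 CPM in Tom negative cells of the first (ratio 1.41), 5856 and 5303 CPM in the second (1.10), and 10738 and 9737 CPM in the third (1.10). With the subsets weighted equally the ratio was 1.22. The subsets were named by the genes that lead them, and their make-up was drawn from genes other than those followed here. The 7 neutrophil markers summed to 27203 CPM in Tom positive, against 38964 CPM in Tom negative neutrophil-like cells, the 8 macrophage markers to 505 and 754 CPM, and the 8 fibroblast markers, which neutrophils should lack, to 4232 and 4038 CPM, with none of them at 0. The part of free RNA and of the subset mixture in the difference was not tested.

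**Figure D2:**
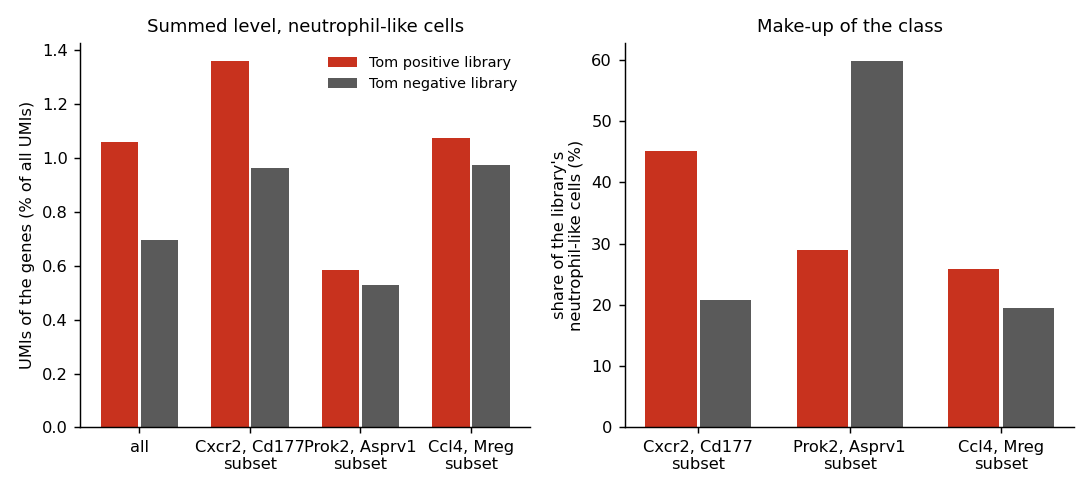
Left, share of UMIs taken by the respiratory chain and ATP synthase genes (percent) in all neutrophil-like cells and in 3 subsets named by leading genes. Right, share of each library's neutrophil-like cells of the finer clustering in the subsets (percent). Red bars are the Tom positive and grey bars the Tom negative library, with no error bars as there is 1 library each. The subset with the lowest level, at 5856 and 5303 CPM, has 29.0% of the Tom positive cells and 59.8% of the Tom negative ones.

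Between macrophage-like and fibroblast-like cells the sum stayed under 1.5-fold, and members past it were a smaller share than among all features. Macrophage-like over fibroblast-like cells gave a sum ratio of 1.23 in the Tom positive and 1.26 in the Tom negative library, and 8 of 84 members were higher in both libraries, where 29.1% of all features were; 1 was lower, where 25.1% were. Cox5a, a nuclear subunit of complex IV (mm10, chr9:57521274-57532426, plus strand), stood out with 553 and 601 CPM in Tom positive and Tom negative macrophage-like cells, against 174 and 193 CPM in fibroblast-like cells, ratios of 3.17 and 3.12. Sdhaf2, which attaches the flavin to Sdha, followed at ratios of 2.36 and 2.25. The others were Ndufb8, Ndufs8, Ndufb7, Uqcrfs1 (the Rieske iron-sulphur protein), Uqcr11 and Atp5g3, at ratios between 1.57 and 1.94. Genes of single comparisons such as these were picked after their values were seen. Beside them 10 of 15 glycolysis genes were higher (Pfkp, log2 1.70 and 1.82) and 4 of 14 of the citrate cycle, and the uncoupling protein gene Ucp2 was at log2 6.10 and 5.94.

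Endothelial-like over fibroblast-like cells gave sum ratios of 0.978 and 1.11, with 5 of 85 members higher, where 28.1% of all features were, and 2 lower, where 17.7% were. Ndufa8, an accessory subunit of complex I (chr2:36036326-36049406, minus strand), had 184 and 209 CPM in endothelial-like cells, against 88.6 and 92.8 CPM in fibroblast-like cells, ratios of 2.08 and 2.25. Cox7a2l, a factor that joins complexes III and IV into supercomplexes, had 304 and 297 CPM, against 170.4 and 187 CPM. Ndufa13, a complex I subunit, was lower at 126 and 154 CPM, against 257 and 236 CPM.

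In pericyte or smooth muscle-like cells the complex IV paralogs Cox4i2, Ndufa4l2 and Cox6b2 were higher than in fibroblast-like cells. The members' sum ratio over fibroblast-like cells was 1.24 and 1.43, and 9 of 89 members were higher, where 21.0% of all features were, and 1 was lower, where 11.8% were. Cox4i2, the paralog of complex IV subunit 4 known to be induced by low oxygen (chr2:152754173-152765037, plus strand), had 136 and 226 CPM, against 2.87 and 4.49 CPM in fibroblast-like cells, ratios of 47.6 and 50.3. UMIs of it were in 39 of 49 pericyte or smooth muscle-like cells of the Tom positive and 137 of 161 of the Tom negative library, against 62 of 1545 and 188 of 2510 fibroblast-like cells, although the fibroblast-like cells were the deeper ones. Its usual form Cox4i1 was at 689 and 729 CPM in the same pericyte or smooth muscle-like cells, and at 502 and 477 CPM in fibroblast-like cells.

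Ndufa4l2, the relative of complex IV subunit Ndufa4 that is a known target of hypoxia-inducible factor (chr10:127514967-127517154, plus strand), had 492 and 577 CPM in pericyte or smooth muscle-like cells and 130 and 154 CPM in fibroblast-like cells. In endothelial-like, macrophage-like and neutrophil-like cells it lay between 2.96 and 13.02 CPM. Ndufa4 itself (chr6:11900292-11907497, minus strand) ran the other way between the first pair, with 88.9 and 119 CPM in pericyte or smooth muscle-like cells, against 265 and 253 CPM in fibroblast-like cells, 2.98-fold and 2.13-fold lower. Cox4i2 and Ndufa4l2 were the members that reached at least 4 times their median over the cell types in both libraries. For Cox4i2 this was in pericyte or smooth muscle-like cells at 36.9 and 50.3 times, and for Ndufa4l2 in the same cells at 65.9 and 44.3 times and in fibroblast-like cells at 17.4 and 11.8 times. Cox6b2, known from testis, was at 17.1 and 14.8 CPM in pericyte or smooth muscle-like cells and at 4.10 and 4.65 CPM in fibroblast-like cells. Over 18 values, the cell types of both libraries, the genes whose levels ranked most like those of Cox4i2 among 13238 features were Ccdc3 (Spearman 0.88), Chd9 (0.88) and Tmem126b (0.87), and like those of Ndufa4l2 Shox2 (0.91), Ephb3 (0.88) and Ndrg4 (0.87). These are the top of a search over many features on few values, and are descriptions only. Medians of Cox4i2 over the cell types were 3.69 and 4.49 CPM, so many of its ranks rest on low levels.

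**Figure D3:**
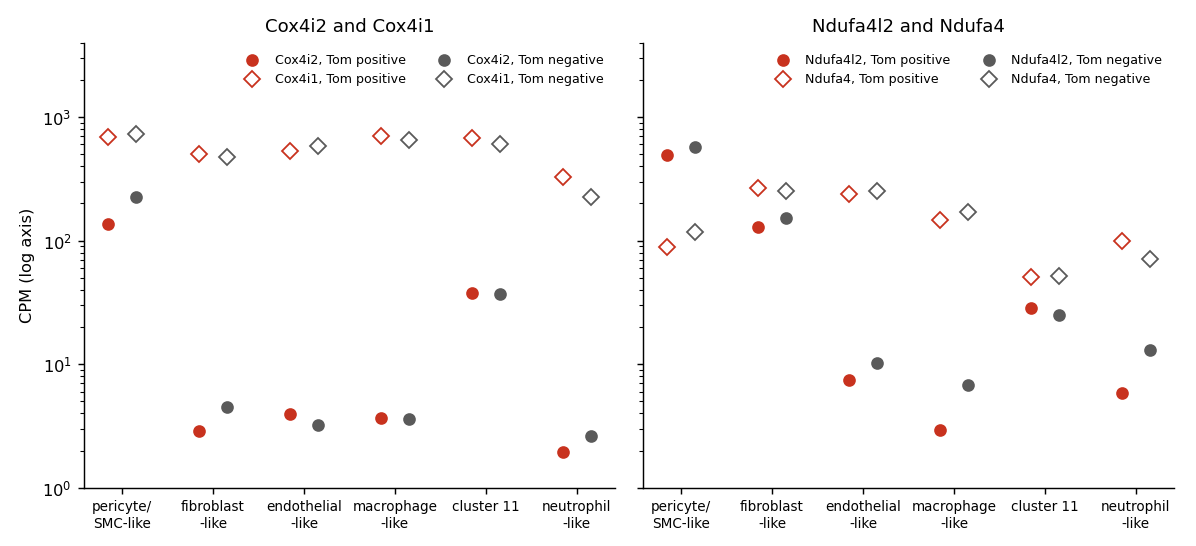
Levels (CPM, log axis) of Cox4i2 and Cox4i1 (left) and of Ndufa4l2 and Ndufa4 (right) in 5 cell types and in the myeloid cluster 11, red for the Tom positive and grey for the Tom negative library. Filled circles are the restricted paralog and open diamonds the common one, without error bars. Cox4i2 stands at 136 and 226 CPM in pericyte or smooth muscle-like cells and at 37.9 and 36.8 CPM in cluster 11, and below 5 CPM in the other types shown.

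Other paralogs were spread over the types or nearly silent. The 3 genes Atp5g1, Atp5g2 and Atp5g3 encode the same mature c subunit of the ATP synthase rotor, and none was restricted to a type by the measure above. In fibroblast-like cells they had 190.1, 319 and 169 CPM in the Tom positive and 193, 352 and 176 CPM in the Tom negative library. In neutrophil-like cells they had 99.1, 186 and 64.1 CPM and 54.0, 115 and 50.1 CPM. Cox7b2 and Cox8c, known from testis, were at most 0.321 CPM in fibroblast, macrophage and endothelial-like cells. The muscle forms Cox6a2, Cox7a1 and Cox8b were scarce over all cells, at 1.59, 3.17 and 0.256 CPM in the Tom positive and 0.649, 3.62 and 0.0265 CPM in the Tom negative one.

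A group of 17 Tom positive skeletal muscle-like cells, too few for the comparisons above, held these forms. Cox6a2 (chr7:128205435-128206387, minus strand) had 130 UMIs there, which is 1632 CPM (1364 to 1938), in 16 of 17 cells, while its common paralog Cox6a1 had 113 CPM. Cox8b had 20 UMIs (251 CPM) beside 452 CPM for Cox8a, and Cox7a1 6 UMIs (75.3 CPM) beside 289 CPM for Cox7a2. The members' sum of these cells was 30113 CPM. Cox4i2, Ndufa4l2 and Cox8c had no UMI in them, which allows up to 37.7 CPM each at 3 counts. Elsewhere Cox6a2 was at most 0.844 CPM in fibroblast, macrophage and pericyte or smooth muscle-like cells. It reached 260.2 CPM in Tom negative plasma-like cells, from 44 UMIs in 2 cells of a class in which 90 of 92 cells were doubted.

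Against macrophage-like cells, the sum of neutrophil-like cells was 1.52-fold and 2.40-fold lower, and 48 of 83 members were lower in both libraries, where 37.4% of all features were, and 1 was higher, where 17.9% were. Lower were 12 of 15 ATP synthase subunits, 7 of 8 of complex III, all 4 of complex II, 18 of 36 of complex I and 5 of 12 of complex IV. Atp5g3 had 64.1 and 50.1 CPM in neutrophil-like cells, against 265 and 281 CPM in macrophage-like cells, and Cox5a had 183 and 124 CPM, against 553 and 601 CPM. The member higher was Ndufaf7, a methyltransferase needed for complex I assembly, at 29.1 and 23.4 CPM, against 8.55 and 12.2 CPM. Cox8a, the common form of complex IV subunit 8, had 993 and 763 CPM, against 635 and 635 CPM, and was past 1.5-fold in the Tom positive library only. All 13 mRNAs of mitochondrial DNA were lower, with sum ratios of 0.188 and 0.181, while 10 of 14 glycolysis genes were higher (Slc2a1, log2 2.05 and 2.06). Against fibroblast-like cells 36 of 84 members were lower, where 42.4% of all features were, and 3 higher, where 23.0% were.

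**Figure D4:**
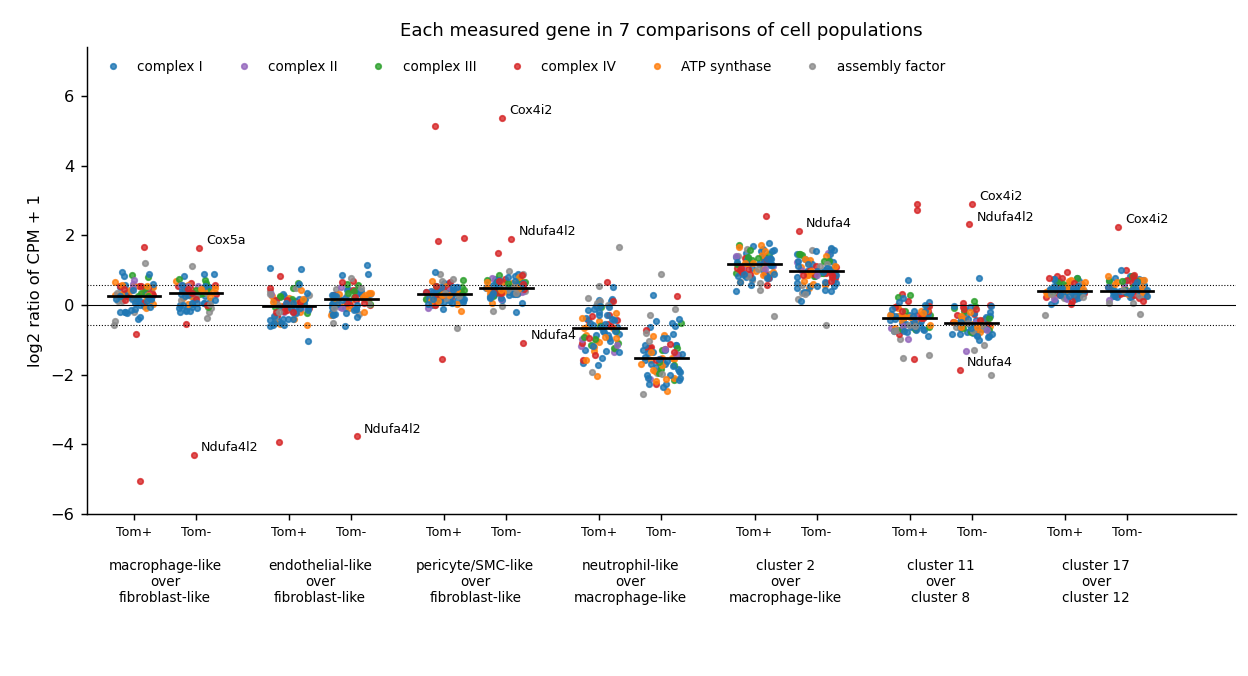
Log2 ratio of CPM + 1 (y axis) of each measured gene in 7 comparisons of populations, within the Tom positive (left of each pair) and the Tom negative library. Points are genes, coloured by complex, black bars their medians and dotted lines 1.5-fold either way on that scale. Cluster 2 over macrophage-like cells has medians of 1.17 and 0.96, and Cox4i2 stands at the top of pericyte or smooth muscle-like over fibroblast-like cells.

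The highest sum of any myeloid or stromal cluster with at least 30 cells in both libraries was that of cluster 2, at 35733 CPM in 37 Tom positive cells and 32289 CPM in 53 Tom negative cells. It was led by Atp6v0d2, Acp5, Ctsk, Mmp9 and Ocstamp, genes best known from osteoclasts, and carried no cell type name. Macrophage was its best scoring type (7 of 8 markers at 50 CPM or more, sums of 1792 and 1778 CPM). The name was withheld because Mmp9, on the neutrophil marker list, was among the leading genes and no macrophage marker was. Over macrophage-like cells its sum ratio was 2.23 (2.19 to 2.26) in the Tom positive and 1.93 (1.91 to 1.95) in the Tom negative library. Of 86 members 69 were higher in both libraries, where 20.2% of all features were, and none was lower, where 20.1% were. The members' median log2 ratio was 1.17 and 0.96, against 0.01 and 0.07 over all features.

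Every complex took part. Higher were all 8 subunits of complex III and all 4 of complex II, 13 of 15 of ATP synthase, 12 of 13 of complex IV and 27 of 36 of complex I, and 4 of 7 complex I and 1 of 3 complex II assembly factors. Ndufa4 had 877 and 754 CPM in cluster 2, against 148 and 171 CPM in macrophage-like cells, ratios of 5.92 and 4.401. Atp5b had 942 and 948 CPM, against 322 and 356 CPM. Sdhb had 254 and 294 CPM, against 95.4 and 104 CPM, and Uqcrc1 227 and 305 CPM, against 87.1 and 112 CPM. Values of the 2 libraries lay closer to each other than to those of macrophage-like cells for each of these genes. Ndufs7, a core subunit of complex I, stood at ratios of 3.46 and 2.94, and Ndufaf4, which acts early in complex I assembly, at 3.15 and 3.096. Cox5a, already high in macrophage-like cells, was at 1.69 and 1.54.

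Other mitochondrial lists went along. In cluster 2, 62 of 77 mitochondrial ribosome genes were higher (Mrps6, log2 2.91 and 2.76), 10 of 14 of the citrate cycle (Idh3a, 2.05 and 1.84) and 22 of 38 other oxidative phosphorylation genes, with Cyc1 (cytochrome c1, 2.41 and 2.04) and Cycs (cytochrome c, 2.25 and 1.94). Ppargc1b, a coactivator known for driving mitochondrial biogenesis, was at log2 3.32 and 2.70, and Hif1a at -3.01 and -2.75. The mRNAs of mitochondrial DNA followed less, with 5 of 13 higher and sum ratios of 1.20 and 1.10, and no glycolysis gene of 14 was higher and 3 were lower (Slc2a1, -1.85 and -1.76). Cytosolic ribosome genes were higher too, 59 of 81. The cycling markers summed to 1055 and 1223 CPM, median depths were 1961 and 7089 UMIs, and the quartiles over cells of the members' share ran between 1.51% and 2.91% in the Tom positive and 1.62% and 3.14% in the Tom negative library, below the pooled 3.57% and 3.23%; the part of division and depth was not tested.

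A share of these genes carries known promoter letters of the respiratory chain. Promoter windows of 300 bases (250 before and 50 after the start, RefSeq, GRCm38.p6) were matched for 80 of the 96 symbols. A gene counted as holding a motif if any of its windows did, on either strand. The letters of the NRF1 site (GCGCA, any base, then GCGC) were in 21 of 80 genes (26.2%), against 5.19% of 27025 genes. The letters CCGGAAG of ETS factors such as GABPA were in 26.2%, against 9.93%, and AANATGGCG of YY1 in 12 of 80, against 2.76%. The core letters ACGTG of the hypoxia response element were in 20 of 80, against 21.8%. Cox4i2 and Ndufa4l2 were among the symbols without a matched window, so none of these counts covers them. Windows were searched for each motif separately, and a match is not a binding site. Members with the NRF1 letters had median ratios of 2.21 and 2.01 (20 genes) in cluster 2 over macrophage-like cells, and members without them 2.22 and 1.92 (54 genes). Shown are the 250 bases before the start, 5′ to 3′ on the gene's strand, of 3 members with the letters and of Ndufa4, the member with the largest ratio in cluster 2, which lacks them; NRF1 letters are in capitals. Sdha, the flavoprotein of complex II, holds them 3 times (chr13:74350241-74350490, minus strand), Ndufa8 (chr2:36049339-36049588, minus) and Ndufaf4 (chr4:24897833-24898082, plus) once each, and Ndufa4 lies at chr6:11907451-11907700, minus.
Sdha: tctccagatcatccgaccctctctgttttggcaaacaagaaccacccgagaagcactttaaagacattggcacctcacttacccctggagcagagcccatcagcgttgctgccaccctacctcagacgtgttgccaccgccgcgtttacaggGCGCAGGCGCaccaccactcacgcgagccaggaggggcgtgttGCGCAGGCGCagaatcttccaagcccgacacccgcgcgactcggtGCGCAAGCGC
Ndufa8: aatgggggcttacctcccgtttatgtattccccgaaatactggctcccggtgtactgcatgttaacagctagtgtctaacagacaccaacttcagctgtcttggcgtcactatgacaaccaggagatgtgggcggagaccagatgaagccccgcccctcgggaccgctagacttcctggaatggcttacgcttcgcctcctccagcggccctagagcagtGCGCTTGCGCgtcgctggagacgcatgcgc
Ndufaf4: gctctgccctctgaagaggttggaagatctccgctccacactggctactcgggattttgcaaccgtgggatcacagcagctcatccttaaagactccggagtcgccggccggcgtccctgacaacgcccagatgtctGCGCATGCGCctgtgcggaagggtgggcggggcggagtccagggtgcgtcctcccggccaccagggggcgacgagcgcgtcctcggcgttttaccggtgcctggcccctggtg
Ndufa4: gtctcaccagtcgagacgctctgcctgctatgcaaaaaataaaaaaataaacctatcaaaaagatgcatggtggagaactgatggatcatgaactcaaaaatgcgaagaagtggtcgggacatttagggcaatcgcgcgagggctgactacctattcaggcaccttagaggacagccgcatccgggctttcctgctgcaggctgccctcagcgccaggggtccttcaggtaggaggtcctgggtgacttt

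The lowest macrophage-related cluster was cluster 11, led by Mmp12, Nos2 and Chil3. Nos2 is the inducible nitric oxide synthase. Against cluster 8, led among others by Cd163, Mrc1 and C1qa, its sum was 12637 and 12154 CPM, against 15433 and 16054 CPM, ratios of 0.819 and 0.757. Lower in both libraries were 25 of 84 members, where 21.2% of all features were, and higher 3, where 9.85% were. The members' median log2 ratio was -0.36 and -0.52, against -0.16 and -0.22 over all features.

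By role the lower ones were 3 of 4 complex II subunits, all 4 complex I and 2 of 3 complex II assembly factors measured, 3 of 8 complex III, 9 of 36 complex I, 2 of 14 complex IV and 2 of 15 ATP synthase subunits. Sdhb had 45.1 and 42.8 CPM in cluster 11, against 90.7 and 108 CPM in cluster 8. Sdhaf1, which helps to insert the iron-sulphur clusters of Sdhb, had 8.01 and 6.24 CPM, against 23.3 and 28.0 CPM. Ndufaf4 had 6.26 and 9.59 CPM, against 20.0 and 25.1 CPM. Higher were Cox4i2, with 37.9 and 36.8 CPM, against 4.87 and 4.02 CPM, Ndufa4l2, with 28.5 and 24.96 CPM, against 2.99 and 4.22 CPM, and Ndufv3, a complex I subunit, with 258 and 294 CPM, against 157 and 171 CPM. The pair that marked pericyte or smooth muscle-like cells also appeared here, at a lower level. Beside this all 14 measured glycolysis genes were higher (Slc2a1, log2 2.44 and 2.34; sum ratios of 3.38 and 2.98), as was Higd1a, a hypoxia-inducible partner of complex IV (1.98 and 1.82), and Idh3a, Fh1 and Ppargc1b were lower (-1.30 and -1.35, -1.17 and -1.17, -2.30 and -1.70). Against cluster 3, led by Ppbp, Chil3 and Ccl24, cluster 11 had ratios of 0.830 and 0.766, with 20 of 84 members lower, where 10.9% of all features were, and 1 higher, where 6.81% were. The member higher was Cox4i2, at ratios of 4.68 and 5.17. Ndufa4l2 was shared with cluster 3, which had 15.1 and 19.5 CPM of it. Its ratios of cluster 11 over cluster 3, 1.89 and 1.28, were past 1.5-fold in the Tom positive library only.

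Ndufa4 and AA467197 ran in opposite directions across these myeloid clusters. AA467197 (chr2:122636986-122641191, plus strand), not a member by symbol and looked up after the Ndufa4 values were seen, carries the RefSeq synonym Nmes1; the human NMES1 protein is known to take the place of NDUFA4 in complex IV in inflamed cells. In cluster 11 Ndufa4 had 51.0 and 51.7 CPM and AA467197 1463 and 1358 CPM. In cluster 8 they had 153 and 191 CPM and 320.5 and 289.7 CPM, and in cluster 2 877 and 754 CPM and 170.0 and 70.2 CPM. Clusters 3, 1 and 15 had Ndufa4 between 72.6 and 118 CPM, between the values of clusters 11 and 8, and AA467197 between 992 and 1443 CPM. Cluster 19 had 191 and 248 CPM of Ndufa4 and 462 and 396 CPM of AA467197. Over the 7 clusters Spearman's rho between the genes was -0.96 in the Tom positive and -0.93 in the Tom negative library, as a description of clusters that share a library. Fibroblast-like cells had 265 and 253 CPM of Ndufa4 and 22.5 and 40.4 CPM of AA467197. Pericyte or smooth muscle-like cells, which had less Ndufa4 than fibroblast-like cells, were also low in AA467197, at 22.8 and 18.5 CPM. The opposite directions were thus not seen between fibroblast-like and pericyte or smooth muscle-like cells.

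**Figure D5:**
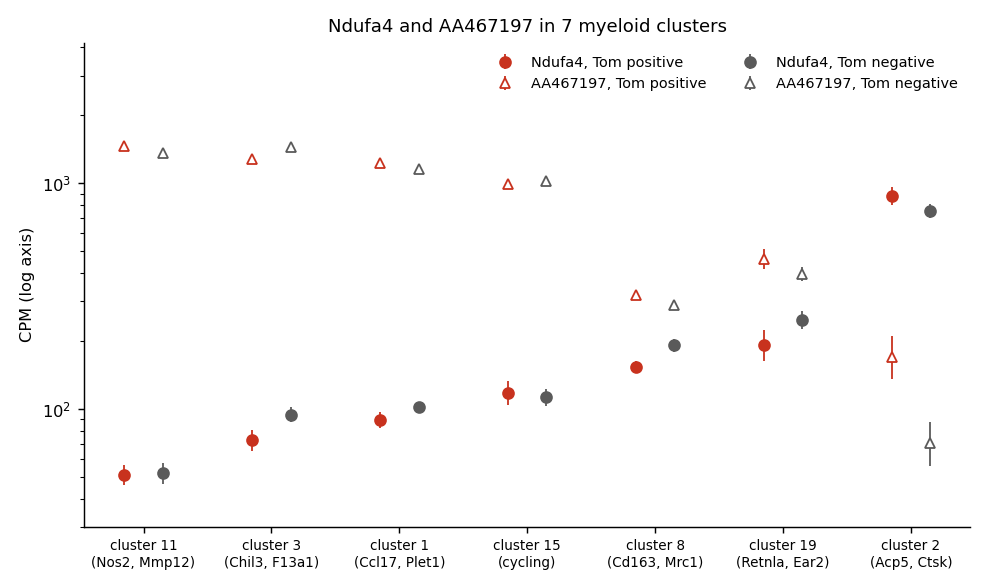
Levels (CPM, log axis) of Ndufa4 (filled circles) and AA467197 (open triangles) in 7 myeloid clusters, red for the Tom positive and grey for the Tom negative library, with Poisson 95% intervals for counting error. In both libraries Ndufa4 is highest in cluster 2, at 877 and 754 CPM, where AA467197 is lowest, at 170.0 and 70.2 CPM.

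Other myeloid subsets differed less in the sum, and few single members were called. Cycling cluster 15 over cluster 8 had sum ratios of 1.17 and 1.12, with 1 of 83 members higher, where 12.1% of all features were, and 1 lower, where 8.75% were. These were Ndufaf5 (2.03 and 1.90) and Sdhaf1 (0.652 and 0.663). Cluster 1, led by Ccl17, Mgl2 and Plet1, had ratios of 1.08 and 1.03 over cluster 8, with 1 of 82 lower, Ndufa4, where 7.74% of all features were, and none higher, where 5.93% were. Cluster 3 over cluster 8 had ratios of 0.987 and 0.989, with 1 of 83 higher, where 5.63% were, and 2 lower, where 9.79% were.

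Among fibroblast subsets the sum was lowest in cluster 12, led by Clec3b, Sfrp4, Tnxb and Pi16, at 11088 and 10843 CPM. Cluster 17, led by Brinp3, Stra6 and Actg2 and also carrying Tnc among its leading genes, had 14993 and 15257 CPM, ratios of 1.35 and 1.41 over cluster 12. Of 85 members 19 were higher in both libraries, where 17.5% of all features were, and none was lower, where 13.1% were. Cox5a had 232 and 253 CPM in cluster 17, against 120 and 126 CPM in cluster 12, and Cox8a had 602 and 591 CPM, against 349 and 333 CPM. Cox4i2 was higher as well, at the low level of 10.8 and 13.05 CPM, against 5.62 and 1.98 CPM. By role 6 of 14 complex IV, 5 of 15 ATP synthase, 5 of 36 complex I and 3 of 8 complex III subunits were higher. Glycolysis genes were higher as well, 10 of 14, with Pkm at log2 1.21 and 1.46.

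Dividing fibroblast-like cells (cluster 18) had 15205 and 16072 CPM, ratios of 1.37 and 1.48 over cluster 12, with 27 of 85 members higher, where 20.8% of all features were, and none lower, where 11.7% were. Cox5a was among them, at ratios of 2.17 and 2.35, as was Ndufab1, the mitochondrial acyl carrier protein (2.13 and 2.21). Here 1 of 14 glycolysis genes was higher and 1 lower. Ndufa4l2 had 216 and 266 CPM in cluster 17 and 214 and 161 CPM in cluster 12, against 65.3 and 69.2 CPM in cluster 6, led among others by Hmcn2 and C7, and 77.7 and 65.6 CPM in cluster 4, led by Thbs4 and Comp. In both libraries it was higher in clusters 17 and 12 than in clusters 6 and 4, while cluster 17 stood above cluster 12 in the Tom negative library (ratio 1.65) and level with it in the Tom positive library (1.01).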

How the data were processed

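The deposited matrices hold UMI counts per gene and barcode, from the 10x Genomics 3′ kit v3.1 per the labels' protocols. Cell Ranger 7.0.1 and mm10 are named in the submitters' processing notes. The rule for calling barcodes as cells was not given, and no barcode had under 500 UMIs. The Tom positive library held 7568 barcodes (128275546 UMIs) and the Tom negative library 13604 (164646314 UMIs).

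A minimum of 500 genes and 1000 UMIs and a mitochondrial limit of 10% left 4365 and 6677 barcodes, of which Scrublet removed 63 and 97 as doublets (scanpy 1.11.5, leidenalg 0.10.2, numpy 2.4.6, scipy 1.17.1). Leiden clustering gave 26 clusters at resolution 1, used here, and 38 at resolution 2, with the genes followed here and the mitochondrial genes kept out of the variable genes. A cluster took the name of its best scoring type if 3 or more of that type's markers reached 50 CPM and no other type had more markers among the 10 leading genes; shallow clusters also needed a leading marker.

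Counts were summed over the cells of each library and population of at least 30 cells and scaled to CPM. Ratios are of plain CPM. Levels have Poisson and ratios exact conditional 95% intervals, and the floor for 0 UMIs is 3 counts. Named by rule were paralogs, core subunits, members at 4 times their median over types, up to 3 members each way at 50 CPM between libraries, and up to 4 genes per list; others were picked after their values were seen. Members and lists were chosen with earlier results of these data known. Gene positions are from GENCODE M21 and promoters from RefSeq. The calculation was tested on simulated data. Alternatives were other filters, TMM factors (edgeR 4.0.16), another denominator, equal weights per cell or subset, another resolution, and leaving out doubted barcodes.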

Additional observations from a re-analysis of the deposited data

Results flagged for a closer look

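Between libraries, the summed level of the respiratory chain and ATP synthase genes moved in opposite directions by cell type. In neutrophil-like cells the Tom positive over Tom negative ratio was 1.52, in endothelial-like cells 0.868 and in pericyte or smooth muscle-like cells 0.854. These are flagged because the groups' effects under the same contrast point opposite ways, and the difference between them was not tested, with 1 library per group.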

How the results depend on the processing

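Log2 sum ratios are given, Tom positive over Tom negative unless populations are named. No paired analysis was possible because each group has 1 library. Of 95 alternative values 61 stayed within counting error or, for counts, within 1.5 times, 34 moved and none reversed a called value. Only sum ratios of at least 1.5-fold could count as reversed, which were those of neutrophil-like cells and of cluster 2. A change of sign in a smaller ratio counted as moved. In fibroblast-like cells (-0.02) a mitochondrial limit of 5% gave -0.0171, 20% -0.0435, TMM 0.0146 and equal weight per cell -0.00326. In macrophage-like cells (-0.06) TMM gave -0.0748, equal cells -0.0816, resolution 2 -0.0393 and equal subsets -0.0274. In endothelial-like cells (-0.20) the 5% limit gave -0.22, 20% -0.18, TMM -0.13 and equal cells -0.0524. In neutrophil-like cells (0.60) TMM gave 0.23 and equal weight of the 3 finer clusters, chosen after seeing the data, 0.29, both under 1.5-fold, as was equal weight per cell (0.57). Macrophage-like over fibroblast-like cells (0.30 and 0.34 in the Tom positive and Tom negative library) gave 0.28 and 0.32 at 5%, 0.33 in the Tom positive library at 20%, 0.14 and 0.22 with TMM, 0.25 and 0.33 with equal cells and 0.35 and 0.37 at resolution 2. The alternatives for the next 2 comparisons were added after seeing the data. Cluster 2 over macrophage-like cells (1.15 and 0.95) gave 1.02 and 0.77 with TMM, 1.31 and 1.09 on a total without ribosomal protein and mitochondrial genes, and 1.20 in the Tom positive library with minimums of 1000 genes and 3000 UMIs. Cluster 11 over cluster 8 (-0.29 and -0.40) gave -0.0815 and -0.17 with TMM. TMM itself shifted all genes by -0.38 in neutrophil-like cells, by -0.17 and -0.12 for macrophage-like over fibroblast-like cells, by -0.14 and -0.18 for cluster 2 and by 0.21 and 0.23 for cluster 11; the cause of the other moves was not tested. The count of members past 1.5-fold in fibroblast-like cells (0) was 1 at the 20% limit and 3 without a CPM filter, and in macrophage-like cells (0) 1 at 5% and 4 without the filter. Depth limits single genes in cluster 2 (37 and 53 cells, medians of 1961 and 7089 UMIs), in neutrophil-like cells (medians of 3564 and 2744 UMIs) and in the 34 Tom negative lymphatic endothelial-like cells (median of 1601.5 UMIs).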
